A study of Mus musculus with 3 samples.

Results

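The 10 genes described here encode proteins that build the nuclear envelope or pack chromatin, and they were chosen by name: the lamins Lmna, Lmnb1 and Lmnb2, the lamin B receptor Lbr, the inner nuclear membrane proteins Sun1 and Sun2, the peptidylarginine deiminase Padi4, and the high-mobility-group proteins Hmgb1, Hmgb2 and Hmgb3. They are 10 of the 27998 genes in the count matrices. Single-cell RNA sequencing was done on CD133+ cells sorted by FACS from the bone marrow of C57BL/6 mice, with the stem cell surface protein CD133, encoded by Prom1, as the gate. There were 3 libraries and 1 library per group, called young (3 months), control (3 months) and old. No transgene, deletion or treatment is named for any of them, and the labels do not say what the control library was a control for. The old mice are 27 months of age in the sample label and 18.5 months in the design text, which also gives 3 mice each for the young and the old library, so that a library holds pooled cells with no record of the mouse. With 1 library per group, no difference between libraries could be tested. Every interval below is a 95% exact interval of the count alone and covers neither mice nor library preparation.

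The nucleus of a maturing neutrophil becomes lobed, and its envelope is unusual. Most tissue cells carry A-type lamins, which stiffen the nucleus, whereas neutrophils keep little lamin A/C and depend on LBR, a membrane protein that binds B-type lamins and heterochromatin and that also has a sterol reductase domain. Loss of LBR function leaves neutrophil nuclei unlobed, as in the Pelger-Huët anomaly. SUN proteins join the lamina to the nesprins of the outer membrane and so to the cytoskeleton. HMGB proteins bend DNA and loosen chromatin, and PADI4 converts histone arginines to citrulline when a neutrophil releases its chromatin as an extracellular trap.

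The cells used numbered 6660 in the young library, 9693 in the control library and 9601 in the old library, with 68375764, 95302268 and 118803951 UMIs (unique molecular identifiers, each standing for 1 captured RNA molecule). Levels are UMIs per 1000000 UMIs (CPM) over all cells of a class. A count from the 3′ end of a transcript does not grow with its length. Levels are mostly compared within a gene. Each cell was placed in 1 of 6 bands by its own granule genes per 10000 UMIs. Band 1 held at least 50 of Mpo, a myeloperoxidase message of promyelocytes, band 2 held 20 to 50, band 3 held 5 to 20 and band 4 held under 5, all with under 5 of Retnlg and Mmp8 together, which mark late neutrophils. Band 5 held 5 to 20 of Retnlg and Mmp8, and band 6, the last band, at least 20. The promyelocyte gene Elane was at 25968, 23979 and 19293 CPM in band 1 and at 1364, 1800 and 790 CPM in band 6 of the young, control and old libraries, and the late gene Mmp9 was at 15.9, 10.1 and 20.2 CPM in band 1 and at 791, 784 and 811 CPM in band 6. The bands therefore ran from promyelocyte-like cells in band 1 to late neutrophil-like cells in band 6 in each library. Bands 5 and 6 could hold up to 20 of Mpo and band 4 under 5. Mpo was at 267, 284 and 264 CPM in band 4, at 403, 432 and 375 CPM in band 5 and at 418, 462 and 291 CPM in band 6. It thus did not order bands 4 to 6. Endothelial markers (Cdh5, Pecam1, Kdr, Emcn, Tek and Eng) summed to between 1.05 and 4.15 CPM over the bands, so that the defining genes of endothelium were nearly absent, while Prom1 lay between 20.3 and 74.5 CPM.

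Several facts of the libraries bear on all results. Band 6 held 6.84% of the banded young cells, 3.80% of the control cells and 17.8% of the old cells, and band 5 held 29.1%, 9.17% and 42.7%. Median UMIs per cell fell from band 1 to band 6, from 12548 to 5040 in the young library, from 12859 to 4575.5 in the control library and from 15282.5 to 7854 in the old library. RNA of the granule genes was also found in cells of another kind: cells of the young library set aside by B progenitor markers carried 7.17 UMIs of Retnlg and Mmp8 per 10000. This is over the lower limit of band 5, so band 5 can hold cells placed there by such RNA. The same cells carried 8.97 UMIs of Mpo per 10000 (118 cells). In the control and old libraries such cells carried 22.4 and 6.74 (13 and 3 cells). All lay over the lower Mpo limit of band 3, which is 5, and the control value also over its upper limit of 20. Bands set by Mpo can therefore also hold cells placed there by such RNA. Whether it was free RNA or came from doublets was not tested, nor was its part in the results. Set aside by markers of other blood cells were 718 of 7378 kept cells in the young library, 87 of 9780 in the control library and 80 of 9681 in the old library. The libraries shared 120 to 161 cell barcodes per pair, of which 0 had identical counts.

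The promoters of 4 genes are shown as examples that differ in 2 promoter strings: Hmgb2 and Lbr hold both, Hmgb1 holds the first alone and Padi4 holds neither. Each sequence runs 5′ to 3′ in the direction of the gene from 250 bases before to 50 bases after the start site in RefSeq (build GRCm38.p6). Capitals mark the CCAAT box, spelled CCAAT, and the CHR element of cell cycle promoters, spelled TTTGAA, on either strand (ATTGG and TTCAAA on the other). The intervals are chr8:57511593-57511892 on the plus strand for Hmgb2, chr5:149053008-149053307 on the minus strand for the first of 2 listed starts of Hmgb1, chr1:181842352-181842651 on the minus strand for Lbr and chr4:140774154-140774453 on the minus strand for Padi4.
Hmgb2: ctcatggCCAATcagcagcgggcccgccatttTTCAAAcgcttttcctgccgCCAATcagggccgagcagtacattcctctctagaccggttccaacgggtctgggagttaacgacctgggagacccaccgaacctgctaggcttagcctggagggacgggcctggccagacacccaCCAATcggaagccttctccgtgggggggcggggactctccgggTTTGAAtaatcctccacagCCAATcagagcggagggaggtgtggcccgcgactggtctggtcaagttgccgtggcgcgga
Hmgb1: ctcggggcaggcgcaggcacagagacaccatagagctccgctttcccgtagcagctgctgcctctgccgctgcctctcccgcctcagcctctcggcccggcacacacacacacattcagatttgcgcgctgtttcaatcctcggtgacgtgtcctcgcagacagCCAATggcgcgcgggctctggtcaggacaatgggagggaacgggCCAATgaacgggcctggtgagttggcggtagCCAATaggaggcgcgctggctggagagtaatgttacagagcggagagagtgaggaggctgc
Lbr: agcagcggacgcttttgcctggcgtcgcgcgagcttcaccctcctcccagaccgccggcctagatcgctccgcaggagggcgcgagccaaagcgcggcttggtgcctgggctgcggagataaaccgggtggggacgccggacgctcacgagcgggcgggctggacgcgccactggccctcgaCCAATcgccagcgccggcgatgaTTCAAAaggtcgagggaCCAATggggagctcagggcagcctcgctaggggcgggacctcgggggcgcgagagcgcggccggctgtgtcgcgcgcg
Padi4: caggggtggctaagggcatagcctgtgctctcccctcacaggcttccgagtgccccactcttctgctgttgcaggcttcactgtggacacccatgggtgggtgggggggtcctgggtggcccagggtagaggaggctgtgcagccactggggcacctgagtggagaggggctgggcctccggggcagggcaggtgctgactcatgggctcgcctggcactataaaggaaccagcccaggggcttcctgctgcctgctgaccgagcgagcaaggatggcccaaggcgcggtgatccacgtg
The Hmgb2 promoter held 4 CCAAT boxes, at -243, -198, -73 and -11 from the start, and 2 CHR elements, at -218 and -30. The Lbr promoter held a CHR element at -45 between CCAAT boxes at -68 and -28. Hmgb1 held 3 CCAAT boxes, at -86, -42 and -11, and no CHR element. In the Padi4 window none of the 6 letter strings searched was found. Of 32851 promoters of the same length, 37.4% held CCAAT, 17.9% held TTTGAA and 6.95% held both, against 4 of the 9 members with a listed promoter (Hmgb2, Hmgb3, Lbr and Sun2). The shares count start sites and the members are genes. Those 9 members have 13 listed start sites, with 1 for each of the 4 named. The E2F strings TTTCCCGC (1.07% of promoters) and TTTGGCGC (0.514%), the C/EBP string TTGCNNAA (10.8%) and the PU.1 string GAGGAAGT (3.20%) matched no member's window. A match is a description of letters and says nothing of binding.

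Lmna was at the edge of detection. The young, control and old libraries gave 31, 10 and 8 UMIs of it, in 30, 10 and 8 of the cells used. These are 0.453 (0.308 to 0.644), 0.105 (0.0503 to 0.193) and 0.0673 (0.0291 to 0.133) CPM. The interval of the young library lay above the other 2 libraries, yet all levels were far under the minimum of 10 CPM that a comparison needed. Sun1, a partner of the nesprins, was also under that minimum, at 5.95, 5.46 and 5.66 CPM, with overlapping intervals in the 3 libraries. The other 8 genes were above it. B-type lamin message came mainly from Lmnb1, at 139, 127 and 118 CPM, with Lmnb2 at 17.6, 15.9 and 12.3 CPM. Lbr stood at 225, 213 and 239 CPM and Sun2 at 73.0, 57.9 and 45.6 CPM. Hmgb1 stood at 1216, 1178 and 1030 CPM, Hmgb2 at 3202, 3118 and 3215 CPM and Hmgb3 at 112, 106 and 120 CPM. Padi4 stood at 56.2, 45.9 and 76.1 CPM.

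**Figure D1:**
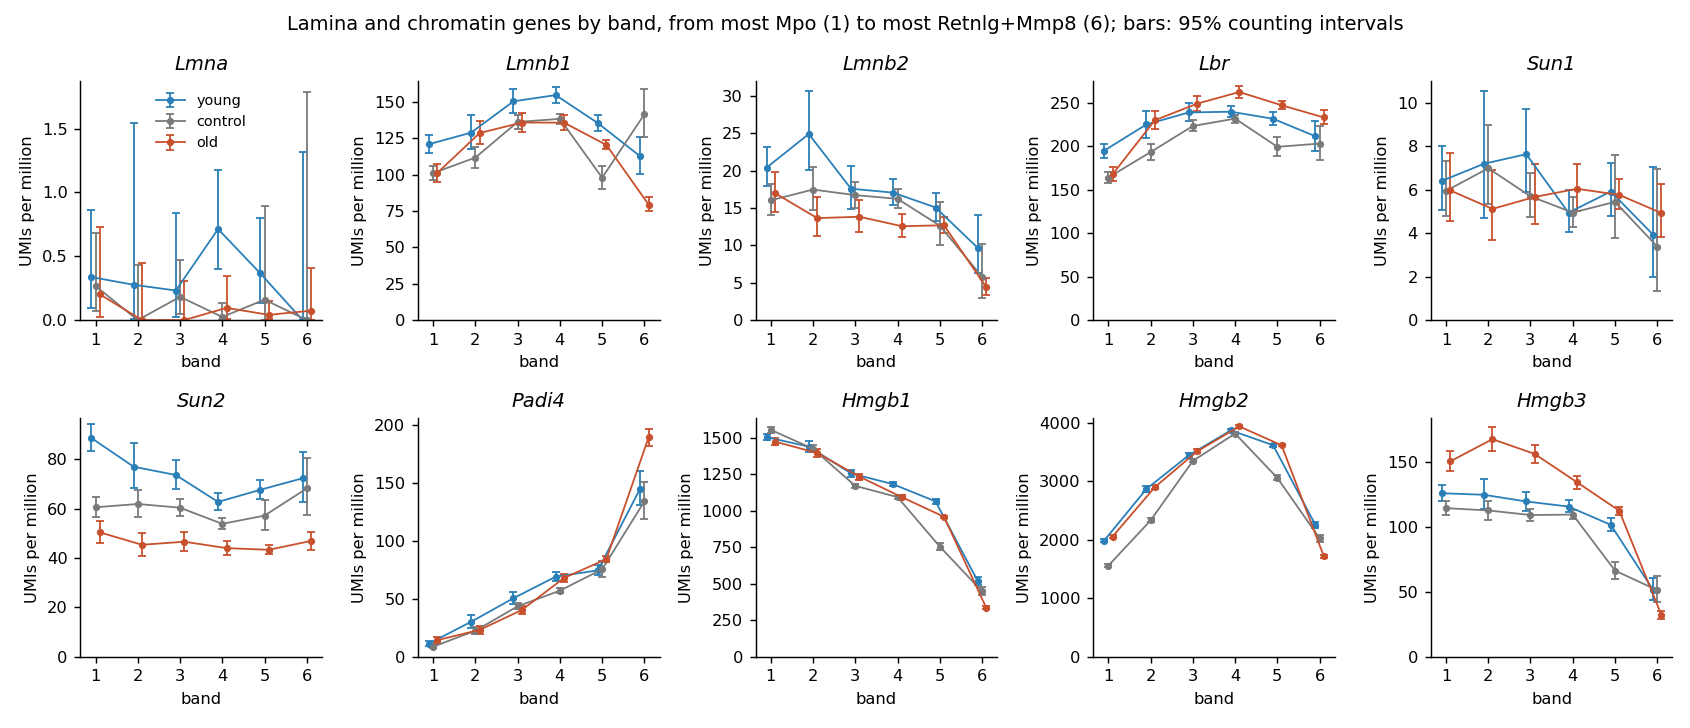
Level of each of the 10 genes in CPM (y axes start at 0) against band, from band 1 (most Mpo) to band 6 (most Retnlg and Mmp8), in the young, control and old libraries; bars are 95% exact counting intervals. Padi4 climbs and Hmgb1 falls over all 6 bands in each library, Hmgb2 and Lbr are highest in band 4, and Lmna is near 0 throughout.

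Whether the genes differ along maturation was read from the last band over the first, where a gene was counted as higher or lower at 1.5 times or more with at least 10 CPM in either band. Padi4 was higher in all 3 libraries, Lmnb2, Hmgb1 and Hmgb3 were lower in all 3, and Lmnb1, Lbr, Sun2 and Hmgb2 stayed within the limit. That is 1 of 8 genes higher and 3 of 8 lower in each library. Lmnb2 was under 10 CPM in the last band of each library, at 9.66, 5.80 and 4.41 CPM. Padi4 was under it in the first band of the control library, at 8.68 CPM. There both reached the minimum only through the band where they were high, so the counts rest in part on that minimum. Over all genes, 13.4% were higher and 59.6% lower in the young library, 15.9% and 60.7% in the control library, and 14.1% and 63.1% in the old library. The median gene was at a log2 ratio of -0.87, -0.95 and -1.06, and the median of the 8 genes was -0.20, 0.24 and -0.30. The count of lower genes was thus under the background share and the count of higher genes near it, and a gene that kept its share of UMIs lay above the typical gene. Scaling decides how the 4 flat genes are read. Counted per cell, Lmnb1, Sun2 and Hmgb2 were lower in the last band in all 3 libraries and Lbr in the young and control libraries, while against the median gene all 4 were higher in the control and old libraries and Lmnb1, Lbr and Hmgb2 in the young library. The lower calls of Lmnb2 and Hmgb3 also depend on scaling. Against the median gene both stayed within the limit in the young and control libraries, and only Hmgb1 was lower in all 3. With genes of at least 1% of UMIs left out of the totals, Hmgb3 was not among the lower genes of the control library.

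Padi4 had the steepest course. From band 1 to band 6 it was at 11.4, 30.2, 50.4, 69.0, 74.5 and 145 CPM in the young library, 8.68, 22.5, 43.5, 57.0, 75.4 and 134 CPM in the control library and 14.4, 23.2, 40.3, 68.0, 84.1 and 189 CPM in the old library. In CPM, each library thus had its bands in the same order, and band 6 was past the limit over band 5, by 0.96, 0.83 and 1.17 on the log2 scale. Counted per cell, bands 4, 5 and 6 were at 0.723, 0.668 and 0.942 Padi4 UMIs in the young library. They were at 0.554, 0.533 and 0.757 in the control library and at 0.896, 1.04 and 1.57 in the old library. Per cell, the order thus broke at band 5 in the young and control libraries. In these libraries band 6 was also within the limit over band 5. The log2 ratio of band 6 over band 1 was 3.67 (3.39 to 3.96), 3.95 (3.64 to 4.26) and 3.72 (3.47 to 3.97), and it stayed positive per cell, at 2.74, 2.83 and 2.89. In cells thinned to 3000 UMIs, a Padi4 UMI was found in 3.45%, 2.78% and 3.88% of band 1 and in 38.8%, 32.5% and 43.3% of band 6. Cells of the young library set aside by B progenitor markers, which should lack the gene, had a share of 4.24% (1.39 to 9.61; 118 cells, median 8368 UMIs, against 12548 in band 1 of that library). They held 19.1 CPM of Padi4, against 11.4 CPM in band 1. The band 1 share of the young library is therefore not told from background. The control and old libraries had only 13 and 3 such cells. The ratios over band 1 thus rest on a level that can be background. No other peptidylarginine deiminase (Padi1, Padi2, Padi3 and Padi6) reached 10 CPM. The genes whose levels followed Padi4 most closely over the 18 points of 3 libraries and 6 bands were Fam129a (Pearson r of log2 values 0.991), R3hdm4 (0.986) and Tinagl1 (0.985). Points within a library share their depth, so such r values only describe.

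Hmgb1, the most widely expressed HMGB protein, ran the other way. It fell in every step, from 1506 through 1440, 1257, 1182 and 1065 to 518 CPM in the young library, from 1556 through 1426, 1172, 1095 and 755 to 449 CPM in the control library and from 1475 through 1397, 1235, 1094 and 960 to 336 CPM in the old library. As a ratio, the step from band 5 to band 6 was the largest in each library, while in CPM the control library fell more from band 4 to band 5. Its log2 ratio of last over first band was -1.54 (-1.62 to -1.46), -1.79 (-1.89 to -1.70) and -2.13 (-2.18 to -2.09). Ddx39b, an RNA helicase of mRNA export, had the most similar course (r = 0.993), followed by the replication factor Cdc45 (0.992) and Tuba4a (0.991). Hmgb1 has processed pseudogene copies, and how reads shared with them were counted is not given in the sources used here, so its level is uncertain.

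Hmgb2, a paralog tied to proliferating cells, rose and then fell. In the young library it went from 1983 CPM in band 1 to 3866 CPM in band 4 and 2251 CPM in band 6. The control library went from 1556 to 3812 and 2022 CPM, and the old library from 2053 to 3933 and 1715 CPM. Band 4 was the highest of the 6 bands in each library, and it was above band 1 by a log2 ratio of 0.96 (0.94 to 0.98), 1.29 (1.27 to 1.31) and 0.94 (0.92 to 0.96). The last band was below band 4 by -0.78, -0.91 and -1.20. Last over first band gave 0.18 (0.14 to 0.22), 0.38 (0.33 to 0.43) and -0.26 (-0.29 to -0.23), so the direction differed between the libraries, within the limit in all 3. The closest courses were those of mitotic genes: Kif23 (r = 0.981), Ube2c (0.978) and Cenpf (0.977). As Hmgb1 fell and Hmgb2 first rose, the number of Hmgb2 UMIs per Hmgb1 UMI grew from 1.32 (1.29 to 1.34) to 4.34 (4.10 to 4.60) in the young library, from 1.0 (0.982 to 1.02) to 4.50 (4.19 to 4.84) in the control library and from 1.39 (1.36 to 1.42) to 5.11 (4.95 to 5.27) in the old library. It grew at each of the 5 steps between bands in all 3 libraries, with the young library's band 4 to 5 step the smallest, from 3.27 to 3.39. The size of this number carries the uncertainty of the Hmgb1 level.

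Hmgb3, the paralog of stem and progenitor cells, was at 126 CPM in band 1 and 51.5 CPM in band 6 of the young library, at 114 and 51.2 CPM in the control library and at 150 and 32.0 CPM in the old library. The log2 ratios were -1.29 (-1.54 to -1.04), -1.16 (-1.45 to -0.87) and -2.23 (-2.39 to -2.08). The old library thus began higher and ended lower than the other 2, with intervals that did not overlap theirs at either end. Anp32e, a histone chaperone, followed Hmgb3 most closely (r = 0.982), before Ube2e3 (0.980) and the DNA ligase Lig1 (0.978).

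Lbr stayed within the limit between the first and the last band in each library. Band 4 was its highest and band 1 its lowest band in each library: 195, 240 and 211 CPM in bands 1, 4 and 6 of the young library, 164, 232 and 203 CPM in the control library, and 168, 262 and 233 CPM in the old library. Its log2 ratio of last over first band was 0.12 (-0.01 to 0.25), 0.31 (0.16 to 0.46) and 0.47 (0.39 to 0.56). Counted per cell it went from 2.42 to 1.37, from 2.01 to 1.15 and from 2.47 to 1.93 UMIs, while total UMIs per cell also fell. In thinned cells a Lbr UMI was found in 44.5%, 39.7% and 40.5% of band 1 and in 48.6%, 44.0% and 49.8% of band 6. The closest courses were those of Arhgef1 (r = 0.973), Hsd11b1 (0.966) and Rell1 (0.945). Lbr overlaps Dnah14 on the other strand, and reads of both could be told apart only by strand.

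Lmnb1 differed between libraries in the last band. Bands 1, 4 and 6 were at 121, 155 and 113 CPM in the young library, 101, 138 and 142 CPM in the control library and 101, 136 and 79.5 CPM in the old library. Last over first band was -0.10 (-0.28 to 0.07), 0.49 (0.30 to 0.67) and -0.35 (-0.47 to -0.22). In the control library band 5 was the lowest of all, at 98.0 CPM, and band 6 the highest. Lmnb2 fell with maturation in each library, from 20.4, 16.0 and 17.0 CPM in band 1 to 9.66, 5.80 and 4.41 CPM in band 6. Those band 6 levels rest on 27, 12 and 60 UMIs, and the log2 ratios were -1.08 (-1.71 to -0.50), -1.47 (-2.44 to -0.64) and -1.95 (-2.40 to -1.51). Sun2 kept its share of UMIs, at 88.6 and 72.3 CPM in bands 1 and 6 of the young library, 60.5 and 68.2 CPM in the control library and 50.4 and 46.9 CPM in the old library. Rtkn2, Rb1 and Aspm came closest to Lmnb1 (r = 0.892, 0.854 and 0.834), and 0610010K14Rik, Ldhb and Gnas to Lmnb2 (0.968, 0.960 and 0.959). Dnajc5 and Znfx1 were among the genes closest to Sun2 (0.948 and 0.932).

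The last band was split into 3 steps of Retnlg and Mmp8, 20 to 60, 60 to 180 and at least 180 per 10000 UMIs, a split chosen after the values by band were seen. Lmnb1 went up over these steps in every library, from 86.2 through 123 to 152 CPM in the young library, from 93.8 through 143 to 239 CPM in the control library and from 59.6 through 70.5 to 140 CPM in the old library. The intervals of the first step and the third did not overlap in any of the 3 libraries. Padi4 also went up, from 112 to 211, from 121 to 170 and from 157 to 239 CPM, with overlapping intervals in the control library. Lbr went from 201 to 231 and from 183 to 214 CPM with overlapping intervals in the young and control libraries, and from 202 to 284 CPM in the old library without overlap. Hmgb2 went down, from 2435 to 1329, from 2132 to 1637 and from 1946 to 1331 CPM. The first step held 172, 146 and 703 cells and the last step 103, 99 and 463 cells. Median UMIs per cell fell from the first to the last step, from 5368.5 to 4398, from 5028.5 to 4090 and from 9390 to 5839. Per cell, Lmnb1 was still higher in the last step in each library, but Padi4 only in the young library. Lbr was lower per cell in each library: in the old library 703 cells gave 1375 UMIs and 463 cells gave 799. Monocyte markers summed to 30.1, 3.87 and 13.4 CPM in the last band of the young, control and old libraries against 22.3, 3.56 and 8.63 CPM in band 4, and cells set aside by those markers had Lmnb1 at 303 CPM in the young and 165 CPM in the old library; their part in the Lmnb1 course was not tested.

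**Figure D2:**
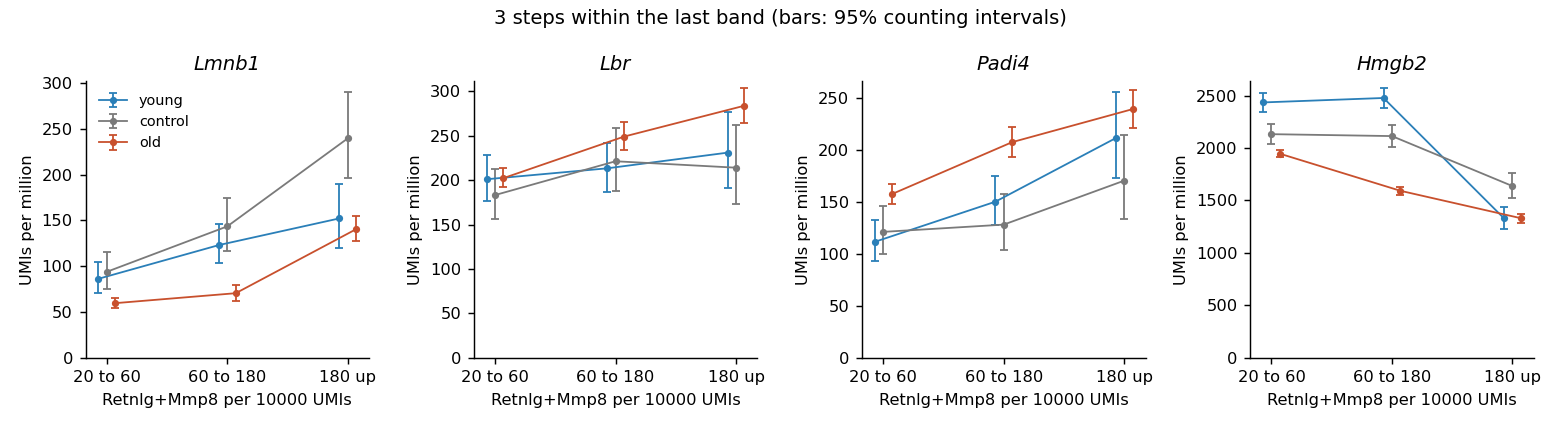
Level of Lmnb1, Lbr, Padi4 and Hmgb2 in CPM (y axes start at 0) in 3 steps of Retnlg and Mmp8 per 10000 UMIs within the last band, in the young, control and old libraries; bars are 95% exact counting intervals. Lmnb1 is higher in the last step than in the first in each library, for instance 239 against 93.8 in the control library, while Hmgb2 is lower.

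Since lamins, LBR and HMGB proteins are also made for cell division, the cells were compared by a score that sums S and G2/M genes per 10000 UMIs and that holds none of the 10 genes. Cells under 10 were called low and cells of at least 40 high. The share of high cells was 68.4%, 46.5% and 80.9% in band 1 and 87.3%, 70.5% and 94.8% in band 2. It was 71.7%, 66.3% and 78.9% in band 4, 59.5%, 37.6% and 62.0% in band 5 and 11.4%, 8.47% and 5.42% in band 6. Cycling thus differed between the bands, with its lowest share in the last band. Within band 4, where both kinds were present (178, 397 and 82 low cells), 6 of 8 genes were higher in high-score cells in each library: Lmnb1, Lmnb2, Lbr, Hmgb1, Hmgb2 and Hmgb3. Padi4 was lower in all 3, and Sun2 was within the limit. Of all genes tested, 37.6%, 36.3% and 35.7% were higher and 7.39%, 5.83% and 8.66% lower in the young, control and old libraries.

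Lmnb1 had 28.9, 24.9 and 30.5 CPM in low-score cells and 177, 161 and 150 CPM in high-score cells of band 4, a log2 ratio of 2.61 (2.12 to 3.15), 2.69 (2.34 to 3.06) and 2.30 (1.75 to 2.92). Hmgb3 had ratios of a like size, 2.50, 2.68 and 2.53, and Hmgb1 followed with 2.42, 2.30 and 2.15, from 250, 258 and 272 CPM in low-score cells. Hmgb2 gave 1.62, 1.57 and 1.74, and Lbr 1.08, 0.94 and 0.63. In low-score cells of band 4 Lbr was at 121, 131 and 178 CPM. In band 6 the ratio of Lmnb1 was smaller, at 0.91, 0.57 and 1.51, and within the limit in the control library. Lmnb2 gave 1.65, 0.98 and 0.92, on only 7, 25 and 6 UMIs in low-score cells, and its interval in the old library reached below 0 (-0.22 to 2.38). At 6.13, 9.28 and 7.03 CPM in low-score cells of band 4, Lmnb2 reached the minimum only through the high-score cells. Padi4 was at 114, 99.5 and 110 CPM in low-score and 66.5, 53.4 and 63.8 CPM in high-score cells, a log2 ratio of -0.78 (-1.04 to -0.50), -0.90 (-1.08 to -0.70) and -0.79 (-1.09 to -0.47). Counted per cell, the ratio in the young library was 0.06. In the control library, 2801 high-score cells gave 1580 Padi4 UMIs and 397 low-score cells gave 268. In the old library, 1247 high-score cells gave 1093 and 82 low-score cells gave 94. Per cell, Padi4 was thus within the limit in all 3 libraries. Among high-score cells of band 4, those richer in G2/M than S genes had more Hmgb2, by 0.43 (0.40 to 0.45), 0.46 (0.45 to 0.48) and 0.41 (0.38 to 0.43), and less Hmgb3, by -0.17, -0.22 and -0.17. Padi4 was at 0.39, 0.51 and 0.67 in the same comparison, past the limit in the old library, and it was the only one of the 8 genes past it.

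**Figure D3:**
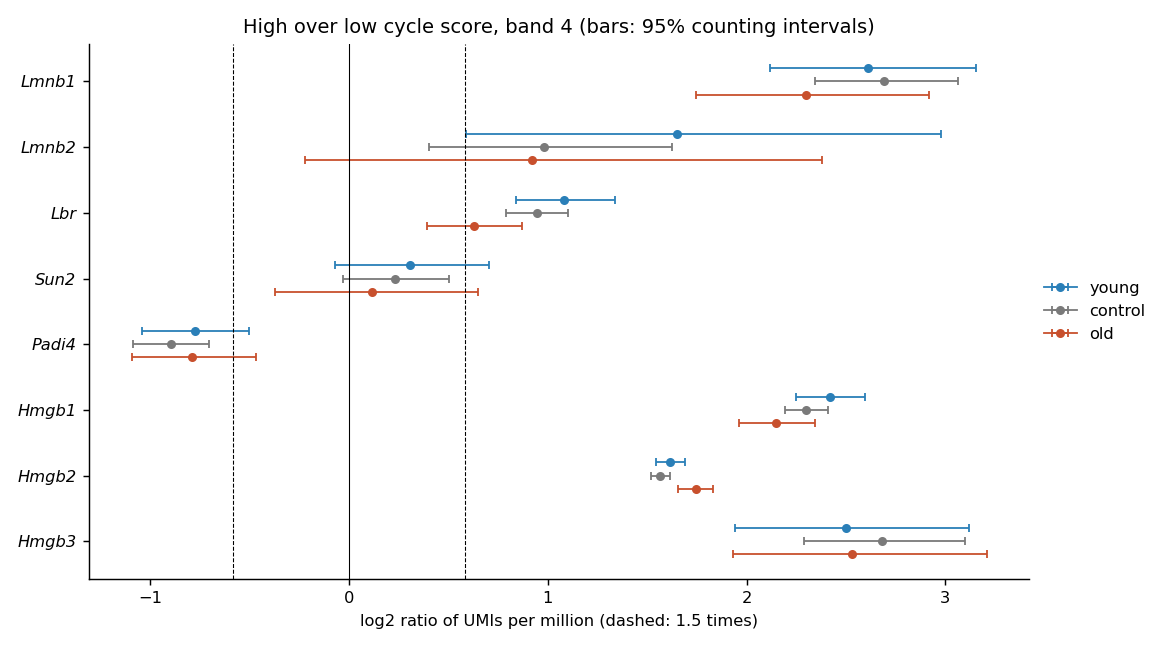
Log2 ratio of CPM in cells of high over cells of low cycle score within band 4, for the 8 genes with at least 10 CPM, in the young, control and old libraries; bars are 95% exact counting intervals and dashed lines mark 1.5 times. 6 genes lie past the upper line in each library, Padi4 lies past the lower line at -0.78, -0.90 and -0.79, and Sun2 lies between them.

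Within a class of the cycle score, the course over maturation depended on the class. Among high-score cells, Hmgb1 in band 6 over band 1 came to -0.41, -0.44 and -0.43, against -1.54, -1.79 and -2.13 in all cells. Among cells of a middle score (10 to 40) it was -1.59, -2.09 and -2.19, close to the values of all cells. Hmgb2 came to 0.92, 1.11 and 0.96 in high-score cells and to 0.45, 0.43 and -0.02 (-0.08 to 0.04) in middle-score cells. Padi4 was higher in both classes, by 2.58, 2.43 and 2.58 in high-score cells and by 3.93, 4.09 and 4.05 in middle-score cells. Lbr came to 0.27, 0.47 and 0.76 in high-score cells and to 0.26, 0.40 and 0.71 in middle-score cells. It was past the limit in the old library alone. Hmgb3 came to -0.60, 0.06 and -0.58 in high-score cells and to -1.19, -1.41 and -2.33 in middle-score cells. Lmnb2 came to -0.02, -1.11 and -0.86 in high-score cells, with intervals across 0. In middle-score cells Lmnb2 was at -1.12, -1.27 and -1.93. Sun2 passed the limit only in high-score cells of the control library (0.75). Band 6 held 49, 31 and 89 high-score cells and 159, 159 and 696 middle-score cells. Each class spans a range of scores. The median score over all classes was 46.9, 39.2 and 48.3 in band 1 and 9.69, 10.3 and 9.77 in band 6. Scores can thus still differ between the bands within a class, which was not tested. Low-score cells were almost lacking in band 1 (1, 0 and 1 cells), so band 6 was set against band 4. Low-score Lmnb1 then rose from 28.9 to 79.7 CPM, from 24.9 to 129 CPM and from 30.5 to 62.2 CPM in the young, control and old libraries. On the log2 scale these are ratios of 1.46 (0.88 to 2.08), 2.38 (1.92 to 2.84) and 1.03 (0.46 to 1.66). Padi4 was higher as well, by 0.80, 0.85 and 0.91. Lbr gave 0.72, 0.52 and 0.26, past the limit in the young library. Hmgb1 gave -0.18, -0.13 and -0.24 and Hmgb2 0.02, 0.01 and 0.10, all within the limit. Counted per cell, Padi4 and Lbr were within the limit in each library, while Lmnb1 was still past it. In the young library, 222 low-score cells of band 6 gave 233 Padi4 and 234 Lbr UMIs. There 178 low-score cells of band 4 gave 130 and 138. In the old library, 857 such cells of band 6 gave 1455 and 1493, and 82 of band 4 gave 94 and 152. Lmnb1 in low-score cells was therefore higher in the last band than in band 4 in each library. The level over all cells showed this in none of them beyond the limit. From band 4 to band 6 it went from 155 to 113 CPM, from 138 to 142 CPM and from 136 to 79.5 CPM. In the old library it was thus past the limit in the opposite direction.

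The libraries were compared over all cells used. Between old and young, 1 of 8 genes was lower and 0 were higher, against 10.4% and 5.03% of all genes. Between control and young, both 3 months of age, 0 were higher and 0 lower, against 2.32% and 3.88%. Between old and control, 1 was higher and 0 were lower, against 5.34% and 8.71%. A count of 0 or 1 of 8 is near these background shares and is no result about the genes as a group. The comparisons share libraries and are not independent.

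Sun2 was the gene lower in the old than in the young library, at 45.6 against 73.0 CPM, a log2 ratio of -0.68 (-0.73 to -0.62). It was lower in 6 of 6 bands, between -0.81 and -0.51, and -0.68 with the bands weighted equally. The control library, of the same age as the young, lay between them at 57.9 CPM, at -0.33 (-0.39 to -0.28) to the young library, so about as far from the young library as the old was from it (-0.34). Padi4 was the gene higher in the old than in the control library, at 76.1 against 45.9 CPM, a log2 ratio of 0.73 (0.68 to 0.78). With the 6 bands weighted equally this fell to 0.30, within the limit, and over single bands it ran from -0.11 to 0.73. The larger share of old cells in bands 5 and 6 moved with it. In band 6 alone Padi4 was higher in the old library than in the young by 0.38 (0.23 to 0.54) and than in the control by 0.50 (0.32 to 0.68).

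Lmnb2 was lower in the old library than in the young by -0.52 (-0.63 to -0.41), short of the limit. In band 6 the old library had less Lmnb1 than the young by -0.50 (-0.69 to -0.32) and less than the control by -0.83 (-1.02 to -0.64), and less Hmgb1 by -0.63 and -0.42. Lbr differed little, by 0.09 (0.06 to 0.11) from young and 0.17 (0.14 to 0.19) from control. Hmgb2 differed by 0.01 and 0.04.

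**Figure D4:**
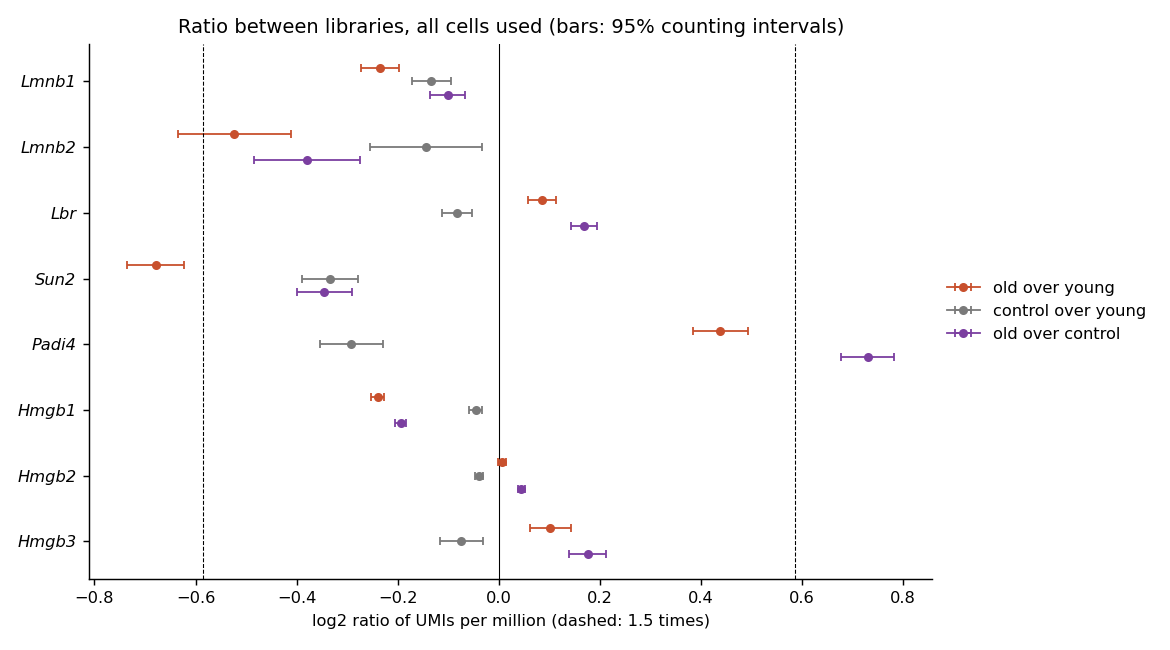
Log2 ratio of CPM between libraries over all cells used, for the 8 genes with at least 10 CPM and 3 pairs of libraries; bars are 95% exact counting intervals and dashed lines mark 1.5 times. Sun2 lies past the lower line for old over young (-0.68) and Padi4 past the upper line for old over control (0.73), and all other points lie between the lines.

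Partners of these proteins were taken as fixed lists and read against all genes, of which 59.6%, 60.7% and 63.1% were lower and 13.4%, 15.9% and 14.1% higher in the last band. Of the nuclear pore list, all members with at least 10 CPM were lower in the last than in the first band: 24 of 24, 26 of 26 and 22 of 22, with medians of -1.80, -2.05 and -2.28 against -0.87, -0.95 and -1.06 over all genes. Nup43 (-2.51, -3.67 and -3.23) and Nup93 (-2.78, -2.28 and -2.61) were the lowest by the mean of the 3 libraries, though not in each of them. In the last band Nup43 was at 3.94, 2.42 and 3.53 CPM and Nup93 at 3.58, 5.32 and 4.04 CPM. Like other genes of this list, they reached the minimum only through the first band, where they were high. The pore counts thus rest in part on that minimum, which the shares over all genes also used. The other high-mobility-group proteins were lower in 7 of 7 in each library, with medians of -1.73, -1.93 and -2.50. By the mean of the 3 libraries the architectural factor Hmga1 (-3.44, -3.15 and -4.14) and the nucleosome binder Hmgn1 (-1.19, -3.65 and -3.84) were the lowest, although Hmgn1 fell less than the list's median in the young library. Hmga1 was at 3.22, 5.80 and 2.06 CPM in the last band and Hmgn1 at 8.59, 1.93 and 1.10 CPM. Both were thus counted only through the first band. In the next 2 lists this also held for some genes, such as Ehmt2 and Pds5b. Of heterochromatin and linker histone genes 11 of 14, 11 of 13 and 12 of 14 were lower and 0, 1 and 0 higher, with medians of -1.28, -1.57 and -1.79. Lower in all 3 libraries were, for instance, the corepressor Trim28 (-2.096, -1.96 and -2.72) and the HP1 gene Cbx3 (-1.44, -2.09 and -2.62). Cohesin, CTCF and condensin genes were lower in 13 of 18, 11 of 17 and 16 of 18, with medians of -0.77, -0.76 and -1.46, so that in the control library their count was near the share over all genes, and in the young and control libraries their medians were above those of all genes. Among the lower ones were Ncapd3 (-1.34, -1.49 and -2.54) and Smc3 (-1.39, -1.87 and -1.99).

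A few envelope genes went the other way. Both nesprins with at least 10 CPM were higher in the last band, Syne2 by 1.66, 2.04 and 0.77 and Syne1 by 1.13, 1.27 and 0.92. Syne2 was at 4.30, 4.01 and 8.29 CPM in the first band, so it reached the minimum only through the last band, where it was high. The count of nesprins thus rests in part on that minimum. Nesprins tie SUN proteins to the cytoskeleton, and Sun2 itself stayed within the limit. Zmpste24, the protease that matures prelamin A, was higher by 1.69, 1.44 and 1.22 although Lmna was near 0, while Rce1 (-1.47, -1.51 and -1.48), which also processes farnesylated proteins, and Fdps (-1.74, -1.46 and -1.12), which makes farnesyl diphosphate, were lower. In that list 1 of 5 genes was higher and 3 of 5 lower in each library, near the shares over all genes given above. Rce1 was at 6.80 and 8.70 CPM in the last band of the young and control libraries, so it was counted there only through the first band. Lamina and LEM-domain partners were lower in 5 of 9, 6 of 9 and 4 of 8 and higher in 0, with medians of -0.75, -0.69 and -0.60, so their counts of lower genes were near or under the share over all genes. Among the lower ones were the chromatin tether Banf1 (-1.72, -1.80 and -2.39) and Tor1aip2 (-1.29, -1.06 and -1.35). Late sterol synthesis, in which the reductase domain of LBR takes part, had 1 higher and 1 lower of 3 genes in the young library, 1 and 4 of 6 in the control library and 1 and 3 of 7 in the old library, with Msmo1 higher (1.42, 0.88 and 1.04) and Ebp lower (-0.73, -0.67 and -0.69) in all 3.

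**Figure D5:**
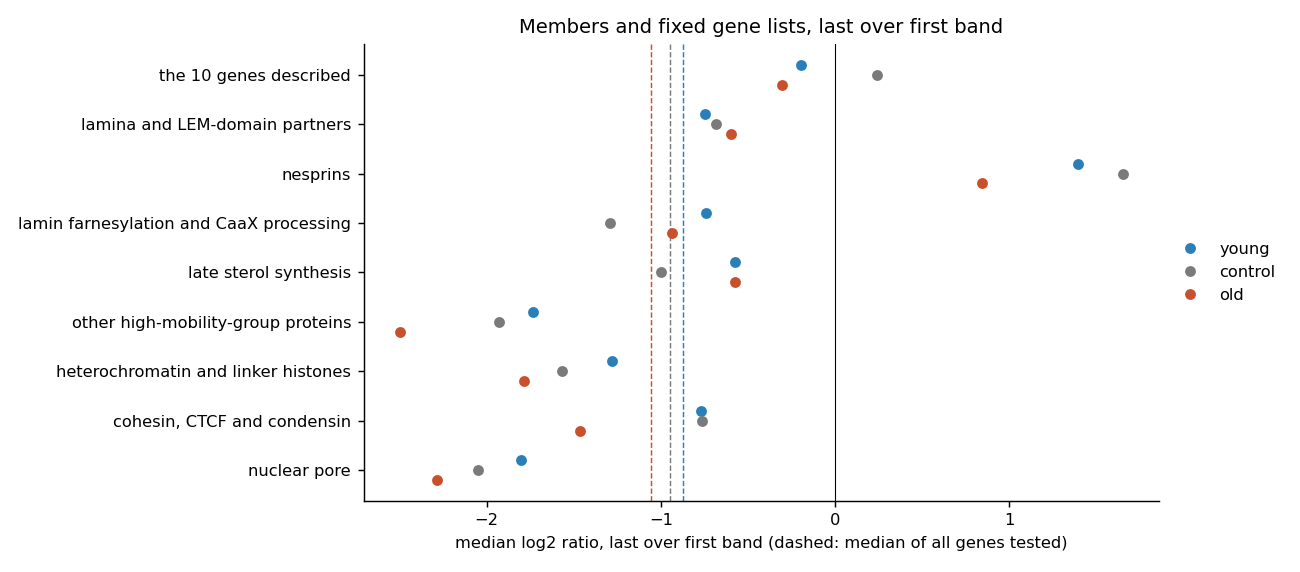
Median log2 ratio of last over first band of the 8 genes tested here and of each fixed list of partners (points, 1 per library), with the median of all genes tested as dashed lines in the same colours. Nesprins lie above 0, on 2 genes of which Syne2 reached 10 CPM in the last band and not in the first. Nuclear pore genes lie lowest in the young and control libraries, and the other high-mobility-group genes lie lowest in the old library.

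Between the old and young libraries, 5.03% of all genes were higher and 10.4% lower in the old library. Of the 5 late sterol synthesis genes tested, 4 were higher in the old library: Cyp51 (2.97 to 10.4 CPM, log2 ratio 1.81), Msmo1 (19.99 to 59.8 CPM, 1.58), Nsdhl (4.99 to 10.2 CPM, 1.03) and Sc5d (14.2 to 23.1 CPM, 0.70). Cyp51 and Nsdhl reached 10 CPM only in the old library, where they were high, so the count of 4 rests in part on that minimum. Control over young was 0.96, 0.62, 0.12 and 0.17 for these 4 genes. Lbr, which carries a reductase of that pathway, did not pass the limit between old and young. Fdps was at 109, 190 and 368 CPM in the young, control and old libraries. It was higher in the old than in the young library by 1.75 (1.72 to 1.79). Control over young was 0.80 for Fdps, also past the limit, though both libraries are 3 months of age. The gene of the linker histone H1f0, known from cells that have stopped dividing, was at 21.8, 18.6 and 98.6 CPM in the young, control and old libraries, 2.18 (2.102 to 2.258) higher in old than young. Lower in the old library were Hist1h1d (-0.77), Ehmt2 (-0.70) and Cbx5 (-0.59) among 13 heterochromatin and histone genes, Pds5a (-0.73) and Pds5b (-0.71) among 18 cohesin and condensin genes, Tor1aip2 (-0.83) among 8 lamina partners and Nup210 (-1.30) among 18 pore genes. Ehmt2, Pds5b and Nup210 were under 10 CPM in the old library and reached the minimum only in the young library. Counts of 1 to 3 in lists of this length are read against the 10.4% and are no result about the lists. 0 of 2 nesprins and 0 of 6 other high-mobility-group genes passed in either direction.

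Cells set aside as other blood cells differed from the bands in several of the 10 genes. Their cycle scores and depth were not matched to those of the bands, and the part of cell type was not tested. In the young library, the 118 B progenitor-like cells had Hmgb1 at 4551 CPM and Lmnb1 at 418 CPM, both above every band, and Padi4 at 19.1 CPM. The 371 monocyte-like cells had Sun1 at 20.3 CPM, above every band of that library, and Sun2 at 36.7 CPM, below every band. Lbr was at 289 CPM in the B progenitor-like and 287 CPM in the monocyte-like cells, above the 240 CPM of band 4, but at 167 CPM in the dendritic cell-like and 172 CPM in the NK and T cell-like cells, below the 195 CPM of band 1. In the old library the monocyte-like cells had Lbr at 213 CPM, below the 262 CPM of band 4. Of the 72 Lmna UMIs in cells set aside in the young library, 52 came from 13 of the 21 cells set aside by erythroid markers. Another 10 came from cells set aside by NK and T cell markers and 9 from monocyte-like cells.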

How the data were processed

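CD133+ cells were sorted from mouse bone marrow and sequenced with Chromium Single Cell 3′ v2 kits. The authors deposited 1 count matrix per library (whole UMI counts per gene and cell, not normalized), and the submitters' processing notes name STAR, Cell Ranger 2.1.0 and mm10. How reads with several matches were treated is not given in the sources used here. The design text states 8000 to 10000 cells, and the files held 8362, 10869 and 10597 cells for young, control and old. It also calls the cells intestinal, whereas every label gives bone marrow.

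After the stated filters (at least 200 genes, at most 20% mitochondrial UMIs, UMIs within percentiles 5 to 95), 7378, 9780 and 9681 cells were kept. Cells with UMIs of at least 3 markers of 1 other blood lineage, summing to at least 10 per 10000 UMIs, were set aside. Doublets were not called, and 371, 52 and 396 cells with both at least 20 of Mpo and at least 5 of Retnlg and Mmp8 stayed outside the bands but in the library totals. Counts were summed per library, band and cycle class and divided by the total UMIs. Each group is 1 library, so no test was run. Exact Poisson intervals of levels, Clopper-Pearson intervals of shares and conditional binomial intervals of ratios (95%) cover counting error only. A gene was called at 1.5 times with at least 10 CPM on either side. In simulated counts for old over young with 200 of 3519 genes changed 3-fold, 200 were called in the right direction and 0 of the 3319 others were called. For last over first band in the control library, 200 of 200 changed genes and 5 of 3843 unchanged genes were called. The simulated counts held counting error alone, in genes of at least 20 CPM, with no spread between mice or libraries. Changes near 1.5 times were not simulated, so the check does not cover calls close to the limit. Shares of cells used cells thinned to 3000 UMIs. Sequences came from RefSeq promoter tables of GRCm38.p6, which list 9 of the 10 genes, and gene overlaps from GENCODE M21 (GRCm38), in which 27645 of 27998 gene IDs were found. The direction of the Lbr and Hmgb2 promoter sequences rests on the table alone, since their starts differ from those in GENCODE. Python 3.11.15, numpy 2.4.6, scipy 1.17.1 and pandas 2.3.3 were used. All sample columns were used (0 left out).

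The 10 genes, the gene lists and the tests were chosen with earlier results of these data known. Named besides the 10 genes were their 3 most similar genes by Pearson correlation of log2(CPM + 1), the marker checks, and for each partner list the 2 genes furthest up and the 2 furthest down among those past the limit in all 3 libraries (last over first band), or past it in old over young. One gene that this rule names is not reported here. Hist1h1d, Ehmt2, Cbx5, Nsdhl and Sc5d were added so that every partner past the limit between old and young is named. The split of the last band and the ratios within cycle classes were added after seeing the data.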

Additional observations from a re-analysis of the deposited data

Results flagged for a closer look

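Lmnb1 took different directions along maturation in the 3 libraries: its log2 ratio of last over first band was -0.10 in the young, 0.49 in the control and -0.35 in the old library. Hmgb2 did so as well, with 0.18 in the young, 0.38 in the control and -0.26 in the old library. These differences between libraries were not tested, since each group is 1 library. Among cells of high cycle score Lmnb1 was at 0.22, 0.89 and 0.77 and Hmgb2 at 0.92, 1.11 and 0.96, all positive, with an interval of -0.11 to 0.53 for Lmnb1 in the young library. Among cells of middle cycle score Lmnb1 was at 0.34, 0.43 and -0.11 and Hmgb2 at 0.45, 0.43 and -0.02, so the sign still differed between the libraries there, with the intervals of the old library reaching across 0.

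Lmna, nearly undetected in the cells used, was found among the kept cells that carried markers of other blood lineages, which no comparison used. It stood there at 11.4 CPM in the young, 11.8 CPM in the control and 6.37 CPM in the old library, on 72, 8 and 5 UMIs. Cells set aside by erythroid markers gave 52, 7 and 2 of those UMIs, from 13, 2 and 1 cells, with up to 8 UMIs in a single cell.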

How the results depend on the processing

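Counts of the genes past the limit kept within 1.5 times of the reported count in 91 of 105 recomputations. Of the log2 ratios of single genes, 554 of 825 stayed inside their counting interval and 3 changed sign. Last over first band depended on the scaling: per cell, 8, 8 and 7 genes passed (1 higher and 7, 7 and 6 lower in the young, control and old libraries); against the median gene 8 passed in the old library (5 higher, 3 lower); and with genes of at least 1% of UMIs left out of the totals 7 passed in the control library (5 higher, 2 lower). The splits of higher and lower genes differ there by the choice of the total, which moves all genes alike. In CPM of low-score cells with band 4 in place of band 1, 2 genes passed in the old library (Lmnb1 and Padi4, both higher). Hmgb3 turned there to 0.65 in the young and 0.63 in the control library. Padi4 in high over low score cells turned to 0.0582 per cell in the young library. Without a minimum level, Lmna passed as well, giving 2 genes for old over young, 1 for control over young and 2 for old over control. At a limit of 2 times, 0 genes passed for old over young and 0 for old over control, and 4 each for cycle score in the control and old libraries. With 6 bands weighted equally, 0 passed for old over control. The alternatives of low-score cells alone for last over first band, and of all 6 bands weighted equally for the cycle score, could not be computed, since bands 1 and 2 held at most 1 low-score cell in each library; bands 3 to 6 weighted equally, like the setting with band 4 in place of band 1 chosen after seeing the data, left the counts of the cycle score within 1.5 times. No paired analysis was possible because each group is 1 library and the labels give no replicate numbers. Depth limits Lmna and Sun1, which were too low to compare, and Lmnb2 in the last band, with 12 to 60 UMIs.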
